A study of Penicillium oxalicum with 12 samples.

Results

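The genes described here are those of the filamentous fungus Penicillium oxalicum whose messenger RNA stood higher than in wild type in 1 engineered strain and lower in another. A gene was chosen when its mean log2(FPKM + 1) over the 3 libraries of a strain was at least 1 above that of the 3 wild-type libraries in at least 1 strain ("raised", at least 2-fold on this scale) and at least 1 below it in at least 1 other ("lowered"). FPKM counts sequenced fragments relative to gene length and library total. Of 9979 genes in the table, 9125 reached an FPKM of 1 in 3 or more libraries and were tested, and 77 of these met the rule, which is 0.844%. The rule also left out 13 locus tags, and 0 of them met its other criteria.

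The 4 groups of 3 libraries were the wild-type strain 114-2 (WT) and 3 strains that each express an engineered transcription factor. The strain gCXC expresses a chimeric factor called CXC, gXlnRC a form of XlnR with the substitution A871V, and gAraRC a form of AraR with the substitution A731V. All strains grew for 24 h with 2% glucose and then for 4 h without any carbon source, at 30 °C and 200 rpm, so every group, WT included, was starved of carbon. The labels do not say which promoter drives each factor, whether each strain is a single clone, or whether the native gene is still present. The series' design text calls the 3 libraries of a group biological replicates.

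XlnR and AraR are fungal regulators that bind DNA through a zinc cluster. In related fungi XlnR activates genes for breaking down xylan and using xylose, and AraR those for using arabinose. Fungal genes that act in 1 pathway can lie side by side on a chromosome, as many genes for secondary metabolites do. Genes carry PDE locus tags only, and 0 of the 9979 tags were found in the reference annotation used, which is that of a different strain. No gene is therefore named or given a role, and the expression of the engineered factors was not checked against the labels.

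Library totals ran from 14549534 to 20092360 reads counted in genes, as recovered from the FPKM values. The rank correlation across genes was 0.990 to 0.997 between libraries of the same group and 0.910 to 0.959 between groups. Some libraries stood apart for the 77 genes. WT replicate 3 was far above the other WT libraries for PDE_01202 and PDE_08849. In gAraRC, replicate 1 was the lowest of the 3 libraries for 27 of the 38 genes raised there (71.1%), against 35.9% of all 557 tested genes raised in gAraRC. It was also the lowest for 19 of the 29 genes lowered there (65.5%), against 50.9% of all 1397. Values without these libraries are given beside the genes and counts they moved most.

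The opposition was mostly between gAraRC and another strain. A total of 42 genes were opposite in gCXC and gAraRC, 39 in gXlnRC and gAraRC, and 17 in gCXC and gXlnRC, and a gene can count in more than 1 pair. In gAraRC, 38 of the 77 genes were raised (6.10% of all tested genes were) and 29 lowered (15.3%). In gXlnRC 26 were raised (3.36%) and 25 lowered (5.70%), and in gCXC 17 were raised (2.10%) and 40 lowered (5.08%). Because the rule used these differences, the shares are a description and nothing is read from them. The 3 comparisons also share the same WT libraries, so they are not independent of each other. The median difference from WT of the 77 genes was -1.03 in gCXC, -0.26 in gXlnRC and 0.85 in gAraRC on the log2 scale, where that of all 9125 tested genes was -0.0026, -0.10 and -0.34.

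**Figure D1:**
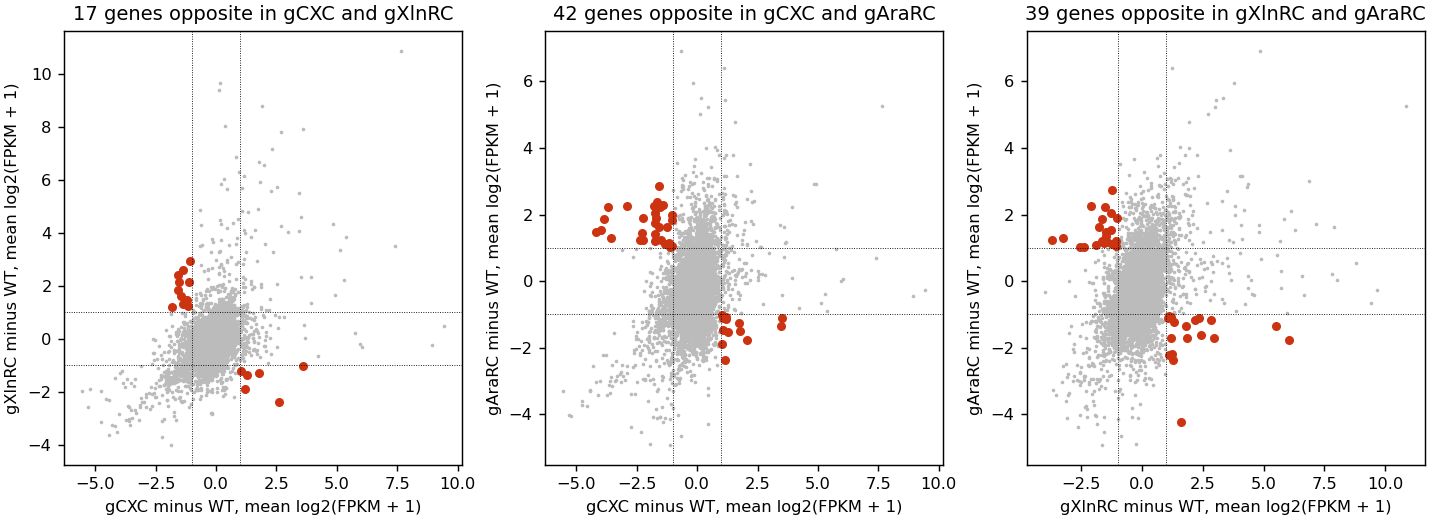
Difference from WT in mean log2(FPKM + 1) for each pair of engineered strains, with 1 point per tested gene (grey, 9125 genes) and the genes with opposite changes of at least 2-fold in that pair in red; dotted lines mark differences of 1 and -1. The red points lie in the upper left and lower right corners, with 17, 42 and 39 genes in the 3 panels.

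By the combination of strains, the most common class held 17 genes that were lowered in gCXC, raised in gAraRC and changed less than 2-fold in gXlnRC. Another 12 were lowered in both gCXC and gXlnRC and raised in gAraRC. Raised in gXlnRC and lowered in gAraRC, with less than 2-fold change in gCXC, were 13 genes. Changed less than 2-fold in the remaining strain were also 9 genes raised in gCXC and lowered in gAraRC, 8 raised in gXlnRC and lowered in gCXC, and 7 lowered in gXlnRC and raised in gAraRC. The remaining 11 genes comprised 3 raised in gXlnRC and lowered in both others, and 4 classes of 2 genes each. In all, 21 genes moved at least 2-fold in all 3 strains and 56 in 2 strains.

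The sizes of the moves were uneven. Between the highest and the lowest strain the 77 genes spanned 2.06 to 7.83 log2 units, with a median of 3.41, and the ratio of the highest to the lowest strain mean had a median of 11.7. The smaller of the 2 opposing moves was at least 2 log2 units in 3 genes (PDE_01193, PDE_01202 and PDE_03857) and under 1.2 in 31. Without WT replicate 3, that of PDE_01202 was 0.91, while PDE_01193 and PDE_03857 stayed at 2.20 and 2.31. Just inside the threshold, the smaller move was 1.01 for gCXC and gXlnRC, 1.03 for gCXC and gAraRC, and 1.01 for gXlnRC and gAraRC, and just outside it was 0.97, 0.99 and 0.98. Both values of 1.01 belong to genes for which WT replicate 3 stood apart, PDE_08849 in gXlnRC and PDE_01202 in gAraRC, and neither move was called (limma adjusted p of 0.404 and 0.333). Without WT replicate 3 these differences were 0.57 for PDE_08849 and 2.48 for PDE_01202. With both genes left out, the values just inside were 1.03 for each of the 3 pairs. The range from 0.9 to 1 held 8, 16 and 16 genes for these pairs, and that from 1 to 1.1 held 3, 9 and 9.

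Most moves were large beside the spread between replicates. Of 175 moves of at least 2-fold, 173 had an adjusted p below 0.05 (limma across all 9125 genes, Benjamini-Hochberg), and in 75 of the 77 genes every such move did. In gCXC these were 17 genes called higher and 40 called lower, where 23.8% of all tested genes were called higher and 26.5% lower (50.3% in either direction). In gXlnRC they were 26 higher and 24 lower, against 19.1% and 35.5% of all tested genes (54.6%), and in gAraRC 37 higher and 29 lower, against 19.1% and 57% (76.1%). The rule used the same values, so these counts only describe the spread. The strain's libraries overlapped with those of WT in 5 moves, which belong to the genes PDE_01202, PDE_05051 and PDE_08849. Over all tested genes, 59.8% in gCXC, 62.0% in gXlnRC and 75.7% in gAraRC had libraries that did not overlap with WT.

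**Figure D2:**
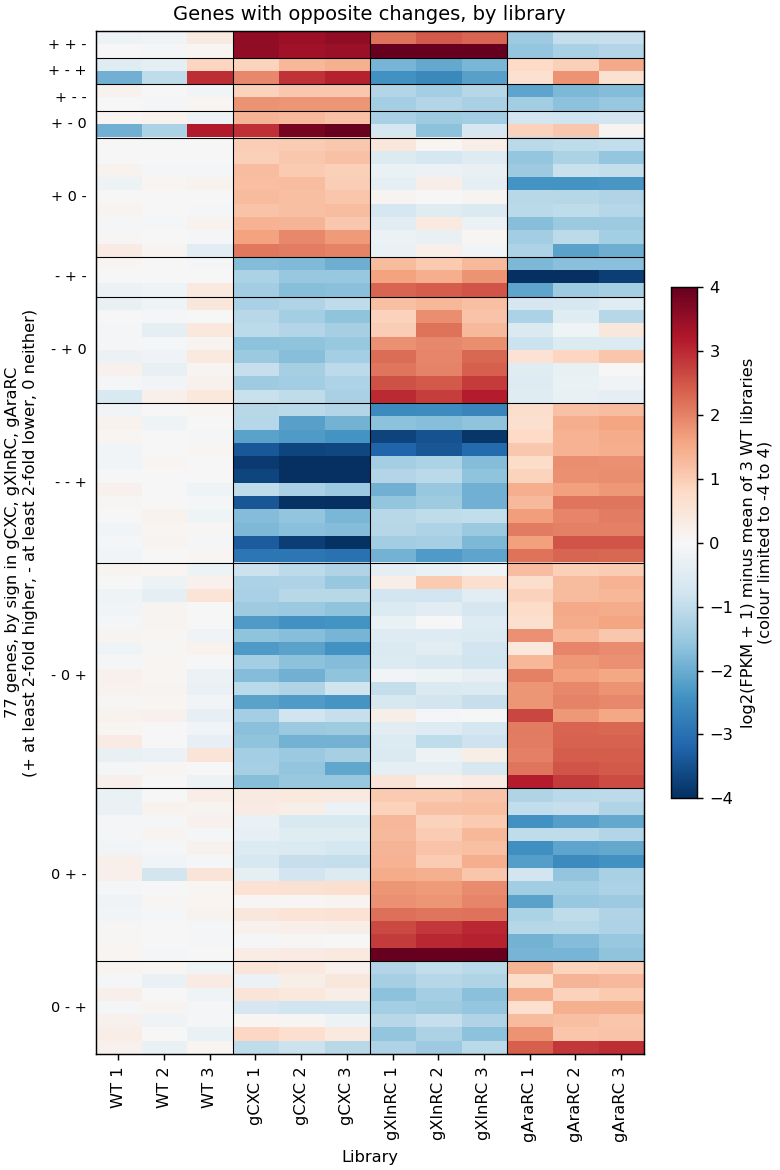
The 77 genes (rows) in the 12 libraries (columns), coloured by log2(FPKM + 1) minus the mean of the 3 WT libraries; rows are grouped by their sign in gCXC, gXlnRC and gAraRC. Libraries of a strain share their colour in most rows, while WT replicate 3 stands apart in 2 rows among the genes raised in gCXC and lowered in gXlnRC.

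The 29 genes raised in gAraRC and lowered in gCXC made up the largest ordered pair. Their level in WT spanned 2.65 to 16508 FPKM with a median of 152 FPKM. The median rise in gAraRC was 1.63 and the median fall in gCXC -1.73 log2 units. In gXlnRC, 12 of them were also lowered, 17 changed less than 2-fold and 0 were raised. Overlap with WT was seen in neither move for any of the 29. Over all tested genes, 59.8% in gCXC and 75.7% in gAraRC did not overlap with WT, and the rule used these values.

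PDE_03857 had the largest smaller move of this pair and also of gAraRC against gXlnRC. Its FPKM values were 564, 613 and 641 in WT, 80.6, 80.2 and 76.2 in gCXC, 161, 125 and 139 in gXlnRC, and 2751, 3024 and 2972 in gAraRC. All 3 gAraRC libraries were above every WT library, and all gCXC and gXlnRC libraries were below. The differences from WT (± SE, limma) were -2.92 ± 0.08 in gCXC, -2.10 ± 0.08 in gXlnRC and 2.27 ± 0.08 in gAraRC.

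PDE_01193 stood at 835, 941 and 828 FPKM in WT, 84.9, 62.3 and 54.4 in gCXC, 329, 348 and 248 in gXlnRC, and 2704, 4984 and 5004 in gAraRC. The lowest gAraRC library, replicate 1, was still above every WT library. PDE_01195 stood at 3219, 3146 and 3071 FPKM in WT, 290, 204 and 168 in gCXC, 1048, 1162 and 820 in gXlnRC, and 7795, 13978 and 13874 in gAraRC. In both genes the 4 groups were in the same order, gCXC lowest, then gXlnRC, WT and gAraRC, with no overlap between neighbouring groups. Their differences from WT were -3.69 and -3.86 in gCXC and 2.23 and 1.87 in gAraRC, each with an SE of 0.23. Without gAraRC replicate 1 their rises were 2.52 and 2.15. In gXlnRC, PDE_01195 differed from WT by -1.65.

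**Figure D3:**
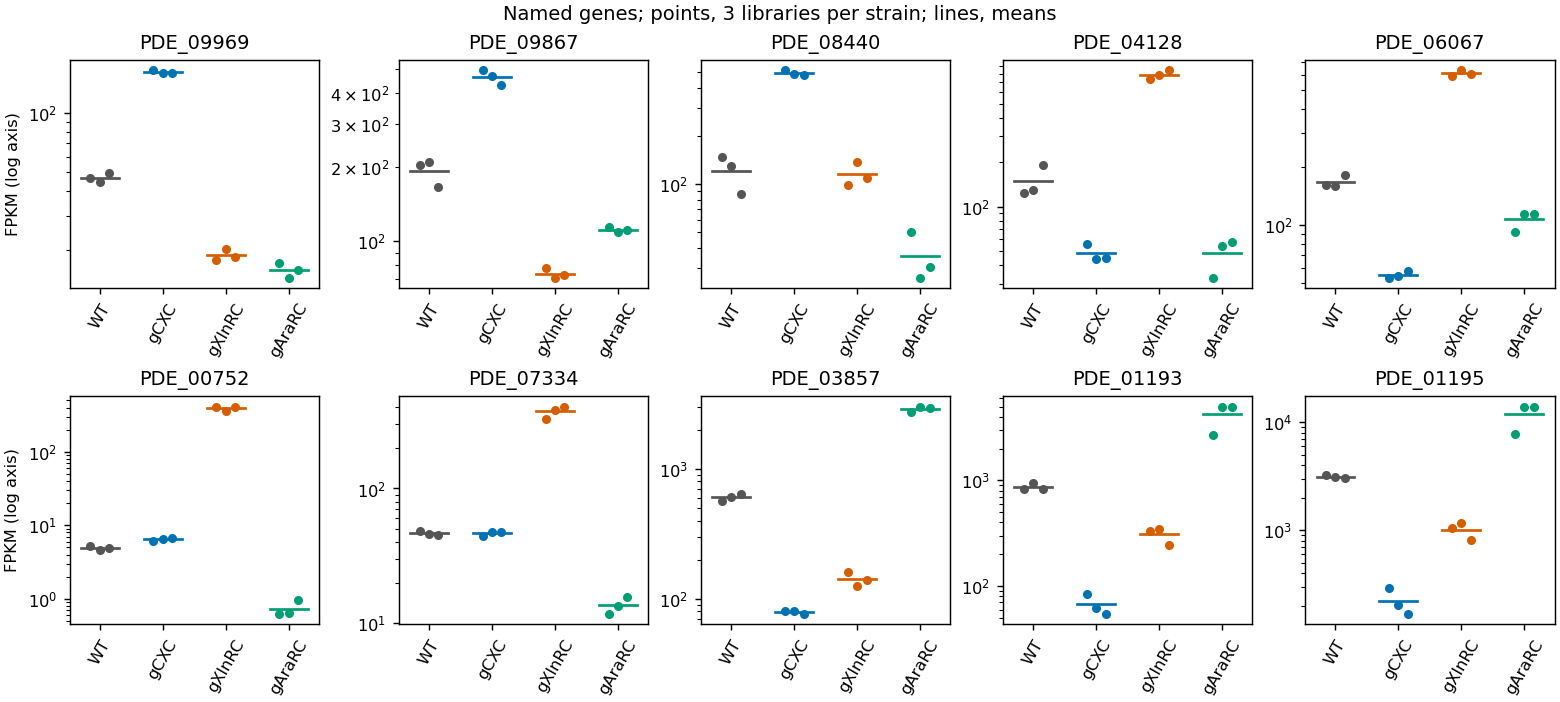
FPKM on a log axis of 10 genes, with points for the 3 libraries of each group and lines for means. By ordered strain pair, they had the largest values of the smaller opposing move. Genes whose libraries overlapped with WT, or whose mean was under 10 FPKM in both strains, were left out. WT lies between the raised and the lowered strains in every panel, and gAraRC replicate 1 is the lowest green point in PDE_01193 and PDE_01195.

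Both PDE_01193 and PDE_01195 belong to a run of neighbouring locus tags. Tag numbers usually follow the order of genes along an assembly, but no coordinates were used here. Among tags PDE_01187 to PDE_01195, 7 of 9 genes met the rule, and all 7 were lowered in gCXC and gXlnRC and raised in gAraRC. Their WT means lay between 535 and 16508 FPKM. Differences from WT ran from -4.19 to -1.12 in gCXC, from -3.70 to -1.29 in gXlnRC and from 1.03 to 2.23 in gAraRC. The smallest rise, that of PDE_01187, was 0.86 with quantile normalization, short of the threshold. With TPM and median-of-ratios scaling it was 1.19 and 1.39. The most abundant of them, PDE_01194, had 17395, 16456 and 15672 FPKM in WT, 3714, 3466 and 3175 in gCXC, 1266, 1477 and 1101 in gXlnRC, and 28732, 43337 and 46439 in gAraRC.

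The order of gCXC and gXlnRC was not the same along the run. PDE_01188, PDE_01189, PDE_01193 and PDE_01195 were lower in gCXC, with means of 126, 103, 67.2 and 221 FPKM against 816, 684, 308 and 1010 FPKM in gXlnRC. PDE_01192 was also lower in gCXC, by a smaller margin (160 ± 7.99 against 219 ± 27.2 FPKM, SD, n = 3). PDE_01187 and PDE_01194 were lower in gXlnRC, with means of 289 and 1281 FPKM against 792 and 3452 FPKM in gCXC. In each of these 7 genes, the gCXC and gXlnRC libraries did not overlap. The share of all tested genes without overlap between these strains was not counted, so nothing is read from this.

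The 2 tags inside the run that did not meet the rule behaved differently from each other. PDE_01191 was lowered in gCXC (-1.86 ± 0.14) and gXlnRC (-4.01 ± 0.14), but in gAraRC it stood at 3006, 4573 and 4813 FPKM, against 5059, 5128 and 5195 FPKM in WT. That difference of -0.34 equalled the median of all tested genes in gAraRC, and with median-of-ratios scaling, which moved this median to -0.01, it was 0.01. With TPM scaling it was -0.19 (median -0.19), but with quantile normalization it was -0.40 (median -0.03), so it depended on the scaling. PDE_01190 had 80.9 ± 4.37 FPKM in WT, 86.5 ± 2.37 in gCXC, 83.7 ± 1.62 in gXlnRC and 136 ± 11.3 in gAraRC (SD, n = 3). The next tags on either side, PDE_01186 and PDE_01196, were not opposite either. PDE_01186 differed from WT by -0.80 in gXlnRC and 0.02 in gAraRC, and PDE_01196 was higher than WT in all 3 strains.

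**Figure D4:**
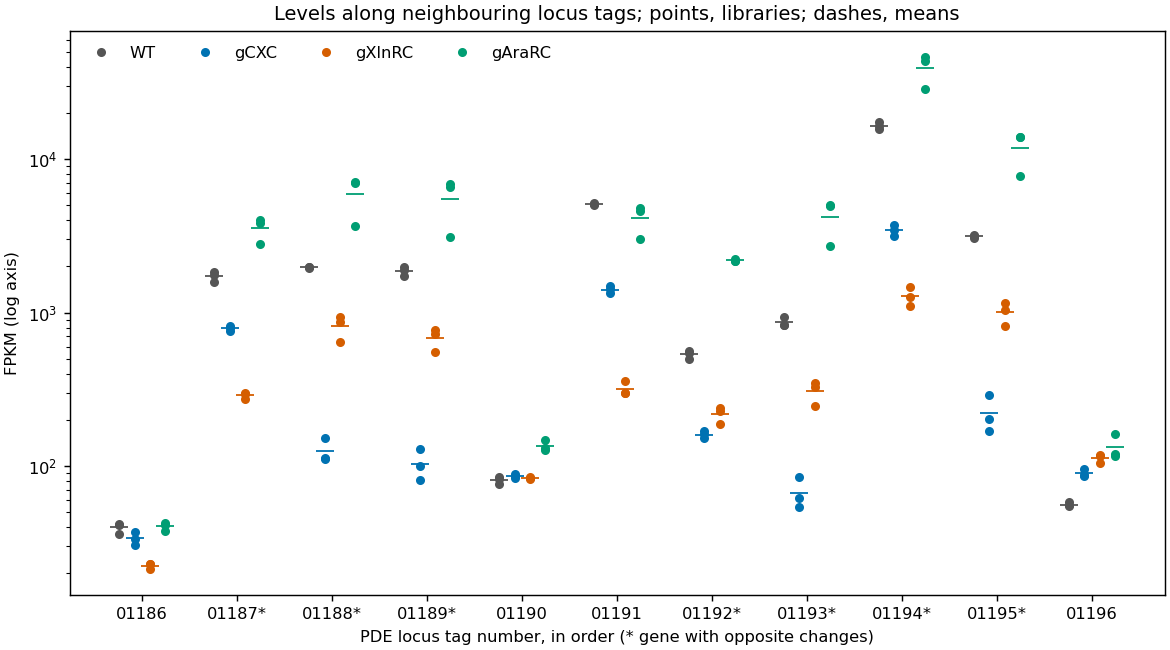
FPKM on a log axis for 11 consecutive locus tags (points, libraries; dashes, means; an asterisk marks genes that met the rule). The 7 marked genes have gAraRC above WT and both other strains below it, while PDE_01190 and PDE_01191 between them do not.

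These 7 genes carried much of the reads of all 77. They took 2.74% to 2.83% of the reads counted in genes in WT, 0.428% to 0.513% in gCXC, 0.522% to 0.718% in gXlnRC and 5.68% to 9.70% in gAraRC. The 77 genes together took 4.40% ± 0.0905 in WT, 1.66% ± 0.0796 in gCXC, 2.13% ± 0.151 in gXlnRC and 12.1% ± 2.77 in gAraRC (SD, n = 3). Without the 7, the other 70 genes took 1.56% to 1.63% in WT, 1.16% to 1.23% in gCXC, 1.45% to 1.57% in gXlnRC and 3.23% to 4.12% in gAraRC. The gXlnRC and WT libraries overlapped in this share, and the other groups did not. The large spread in gAraRC came with replicate 1, where the 77 genes took 8.91%, against 13.6% and 13.8% in replicates 2 and 3. For 6 of the 7 genes replicate 1 was the lowest gAraRC library, the exception being PDE_01192 (2250, 2171 and 2167 FPKM). Without gAraRC replicate 1, the median rise of the 7 was 1.85 instead of 1.52.

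**Figure D5:**
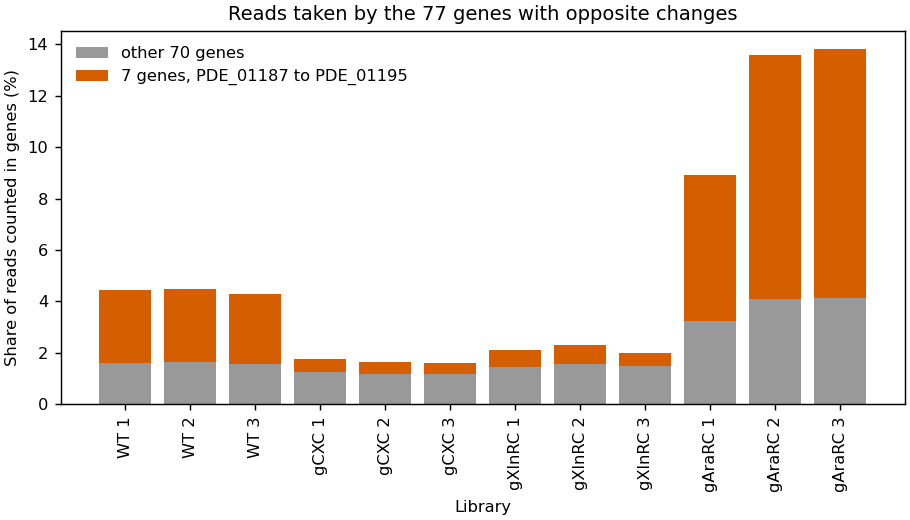
Percentage of reads counted in genes taken by the 77 genes in each library, split into the 7 genes of PDE_01187 to PDE_01195 (orange) and the other 70 (grey). The total is near 4.40% in WT, below it in gCXC and gXlnRC, and reaches 8.91%, 13.6% and 13.8% in the 3 gAraRC libraries.

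Further runs of neighbouring tags were seen. Counting runs of at least 3 members no more than 10 tag numbers apart, 18 of the 77 genes fell into 4 runs, and 20 had another of the 77 at the next tag number. Runs were not counted among all tested genes or among those moved in a single strain, so nothing is read from these counts. The run above extends under this definition to PDE_01202, which did not share its pattern. The run from PDE_01261 to PDE_01267 held 4 members. Its last 3 were lowered in gCXC and raised in gAraRC, with differences of -2.26, -1.67 and -1.52 and of 1.88, 2.37 and 2.22 log2 units. PDE_01265 was the most abundant of them, with 888, 895 and 787 FPKM in WT, 194, 175 and 165 in gCXC, 544, 519 and 450 in gXlnRC, and 2881, 3411 and 3213 in gAraRC. PDE_01261 showed another pattern, at 27.4 ± 1.70 FPKM in WT, 64.2 ± 5.44 in gXlnRC, 7.12 ± 0.654 in gCXC and 7.66 ± 0.452 in gAraRC (SD, n = 3).

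PDE_03413 to PDE_03415, 3 adjacent tags, were expressed at a low level. PDE_03414 had 3.15, 2.66 and 2.14 FPKM in WT, 0.121, 0.281 and 0.278 in gCXC, 4.22, 3.19 and 3.58 in gXlnRC, and 30.7, 24.1 and 21.3 in gAraRC. In gCXC this was 3 to 6 reads per library, and PDE_03413 had 0 to 3 reads there, so the sizes of these falls are imprecise. All 3 genes were above every WT library in every gAraRC library and below every WT library in every gCXC library. The rule used these values, and over all tested genes 59.8% in gCXC and 75.7% in gAraRC did not overlap with WT. The nearby tag PDE_03417 was more abundant, with a WT mean of 64.0 FPKM. It differed from WT by -1.95 in gCXC and 0.99 in gAraRC, just short of the threshold. With median-of-ratios scaling these differences were -1.92 and 1.34. PDE_03416, which lies between, differed by only -0.35 and 0.42 without rescaling.

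PDE_05719 to PDE_05721 formed a run of genes raised in gXlnRC and lowered in gCXC. PDE_05720 had 63.8, 62.3 and 75.2 FPKM in WT, 24.6, 24.6 and 27.7 in gCXC, 398, 371 and 475 in gXlnRC, and 46.4, 55.5 and 61.1 in gAraRC. The 3 genes rose by 2.16 to 2.96 log2 units in gXlnRC and stood 1.08 to 1.35 units below WT in gCXC. The fall of PDE_05719 rested on 11 to 18 reads per gCXC library, against 32 to 39 in WT, and was -0.92 with quantile normalization. That of PDE_05721 was -1.08 ± 0.21 (SE, limma), with 20.5, 36.6 and 43.0 FPKM in WT. In gAraRC the 3 genes differed from WT by -0.25 to -0.38, around the median of all tested genes there (-0.34). With median-of-ratios scaling these differences were 0.07, 0.05 and -0.04 for PDE_05719, PDE_05720 and PDE_05721, so their direction depended on the scaling in the first and second of these genes. The tags next to them, PDE_05718 and PDE_05722, did not meet the rule.

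Genes outside the runs shared these combinations. Of the 12 genes lowered in gCXC and gXlnRC and raised in gAraRC, 5 lay outside PDE_01187 to PDE_01195. PDE_04588 had 66.4, 72.9 and 75.3 FPKM in WT, 5.94, 4.74 and 4.76 in gCXC, 6.87, 5.70 and 7.37 in gXlnRC, and 152, 188 and 197 in gAraRC. PDE_03365 was more abundant, and its falls were smaller and its rise larger (-1.26, -1.79 and 1.62 against -3.57, -3.25 and 1.30 for PDE_04588), with 1534, 1386 and 1223 FPKM in WT, 679, 561 and 496 in gCXC, 361, 483 and 358 in gXlnRC, and 3783, 4309 and 4598 in gAraRC. In both genes gCXC and gXlnRC were clear of WT, and in PDE_04588 the gCXC and gXlnRC libraries overlapped with each other. The 12 genes had a median WT level of 1125 FPKM, the highest of the classes. Of the 12, the 7 in PDE_01187 to PDE_01195 had WT means of 535 to 16508 FPKM. In the other 5, PDE_04588, PDE_09479, PDE_03365, PDE_06949 and PDE_03857, they were 71.6, 9.87, 1381, 5.42 and 606 FPKM. The median was 59.7 FPKM for the 17 genes lowered in gCXC and raised in gAraRC that changed less than 2-fold in gXlnRC. Although those 17 were not lowered 2-fold in gXlnRC, their median difference from WT there was -0.53, within a range from -0.79 to 0.64.

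The 7 genes lowered in gXlnRC and raised in gAraRC, with less than 2-fold change in gCXC, fell by 1.07 to 1.56 log2 units in gXlnRC. PDE_09988 had the largest rise of them, to 35.7, 48.5 and 53.0 FPKM in gAraRC from 6.90, 4.80 and 6.36 FPKM in WT, and stood at 1.95, 1.56 and 2.32 FPKM in gXlnRC. Its gCXC libraries (2.48, 2.87 and 2.20 FPKM) were also below every WT library, by 0.99 log2 units on average, just short of the threshold. In FPKM itself this fall was more than 2-fold, from a mean of 6.02 in WT to 2.52 in gCXC. PDE_01080 was the most abundant, with 3337, 3737 and 3229 FPKM in WT, 2150, 1962 and 1987 in gCXC, 1343, 1284 and 1183 in gXlnRC, and 5461, 9260 and 9241 in gAraRC.

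Adjacent tags did not always share a pattern. PDE_09866 was raised in gXlnRC (728, 696 and 808 FPKM) and lowered in gAraRC (46.3, 70.9 and 74.1 FPKM) against 186, 214 and 219 FPKM in WT, with gCXC at 214, 214 and 222 FPKM. Its neighbour PDE_09867, described further on, was lowered in gXlnRC and raised in gCXC. PDE_09478 and PDE_09479 were both lowered in gCXC and raised in gAraRC, but in gXlnRC the former stood at 11.6, 21.4 and 15.7 FPKM, above its WT values of 9.87, 8.46 and 11.3 FPKM. PDE_09479 stood at 2.44, 2.31 and 2.56 FPKM there, below its WT level of 9.87 ± 1.16 FPKM (SD, n = 3).

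Between gXlnRC and gCXC, 11 genes were raised in the former and lowered in the latter. Their median WT level was 33.4 FPKM, and the largest WT level was 254 FPKM. PDE_04128 had 124, 130 and 192 FPKM in WT, 55.4, 44.2 and 45.0 in gCXC, 735, 789 and 840 in gXlnRC, and 32.8, 53.9 and 57.8 in gAraRC. It was thus lowered in both gCXC and gAraRC, whose libraries overlapped with each other and not with WT. PDE_06067 had 162, 159 and 181 FPKM in WT, 53.4, 54.6 and 58.2 in gCXC, 594, 633 and 607 in gXlnRC, and 92.3, 115 and 115 in gAraRC. The 4 groups of PDE_06067 did not overlap.

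Of the 18 genes raised in gXlnRC and lowered in gAraRC, 13 changed less than 2-fold in gCXC, 3 were lowered there and 2 raised. PDE_00752 had the largest rise of all 77 genes. Its FPKM values were 5.23, 4.58 and 4.94 in WT, 6.18, 6.48 and 6.77 in gCXC, 403, 361 and 413 in gXlnRC, and 0.620, 0.631 and 0.953 in gAraRC. The rise in gXlnRC was 6.05 ± 0.09 log2 units (SE, limma), and the level in gAraRC rested on 10 to 18 reads per library. PDE_07334 stood at 48.6, 46.1 and 45.4 FPKM in WT, 44.1, 47.8 and 47.6 in gCXC, 329, 385 and 405 in gXlnRC, and 11.7, 13.4 and 15.7 in gAraRC. Here gCXC and WT overlapped, and the other 2 strains lay on either side of them.

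On the log2 scale, the deepest fall of the 77 genes was that of PDE_06610 in gAraRC, to 8.58, 12.6 and 17.5 FPKM from 253, 250 and 258 FPKM in WT. It was raised to 774, 696 and 884 FPKM in gXlnRC and lowered to 104, 88.0 and 88.1 FPKM in gCXC. Both genes that were raised in gCXC and gXlnRC and lowered in gAraRC, PDE_07928 and PDE_09278, rose more than 4-fold in those strains. PDE_07928 was higher in gCXC (521 ± 25.3 FPKM) than in gXlnRC (228 ± 20.5 FPKM), against 45.5 ± 10.7 in WT and 20.5 ± 4.07 in gAraRC. PDE_09278 was higher in gXlnRC (1162 ± 36.0 FPKM) than in gCXC (281 ± 16.9 FPKM), against 24.8 ± 1.21 in WT and 9.25 ± 1.29 in gAraRC (SD, n = 3).

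The 21 genes raised in gAraRC and lowered in gXlnRC had the highest median WT level of the ordered pairs, 273 FPKM. They include the 7 genes of PDE_01187 to PDE_01195. In gCXC 12 of the 21 were lowered, 7 changed less than 2-fold and 2 were raised. The reverse combination of gCXC and gAraRC, raised in gCXC and lowered in gAraRC, held 13 genes with a median WT level of 46.8 FPKM. PDE_08440 had 148, 129 and 87.1 FPKM in WT, 512, 488 and 477 in gCXC, 98.2, 137 and 109 in gXlnRC, and 50.2, 25.9 and 30.2 in gAraRC. Its WT and gXlnRC libraries overlapped. PDE_09969 had 46.6, 44.3 and 49.6 FPKM in WT, 165, 160 and 161 in gCXC, 17.8, 20.3 and 18.3 in gXlnRC, and 17.1, 14.4 and 15.8 in gAraRC. It stood above WT in gCXC alone and below it in both other strains. With median-of-ratios scaling, 7 instead of 13 genes were raised in gCXC and lowered in gAraRC. Conversely, 38 instead of 29 were then raised in gAraRC and lowered in gCXC.

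Raised in gCXC and lowered in gXlnRC were only 6 genes, of which 3 (PDE_01202, PDE_08849 and PDE_09909) no longer met the rule for these strains without WT replicate 3. In PDE_09909 that library did not stand far apart (78.1, 70.2 and 65.5 FPKM in WT), and the rise in gCXC, 1.03, was close to the threshold. PDE_01202 had 2.33, 5.32 and 96.5 FPKM in WT, 47.1, 92.4 and 106 in gCXC, 1.37, 1.15 and 1.84 in gXlnRC, and 18.6, 42.9 and 18.5 in gAraRC. PDE_08849 had 3.02, 5.33 and 134 FPKM in WT, 112, 213 and 253 in gCXC, 8.25, 3.81 and 8.50 in gXlnRC, and 27.9, 31.0 and 15.4 in gAraRC. In both genes WT replicate 3 lay within the range of the gCXC libraries, while the other WT libraries lay below all of them. Without WT replicate 3, PDE_08849 was 0.57 above WT in gXlnRC instead of 1.01 log2 units below it, and PDE_01202 was 0.91 below instead of 2.38. PDE_05051 had 22.1, 23.4 and 57.1 FPKM in WT, and kept both moves without WT replicate 3 (1.64 in gCXC and -1.48 in gXlnRC), but was 0.98 above WT in gCXC without WT replicate 1.

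Without WT replicate 3, the other 3 of these 6 genes still met the rule for gCXC and gXlnRC, and 70 genes met it for any pair, 64 of them among the 77. PDE_09867 was 1 of these 3, with 203, 209 and 165 FPKM in WT, 493, 468 and 431 in gCXC, 77.8, 71.0 and 72.8 in gXlnRC, and 114, 109 and 111 in gAraRC. The 4 groups of PDE_09867 did not overlap. Without gAraRC replicate 1, 79 genes met the rule, 71 of them among the 77.

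The 77 genes were of ordinary length and above average level. The median coding length recovered from the FPKM values was 1140 nt, against 1161 nt for all tested genes. The median WT level was 59.7 FPKM, against 26.9 FPKM over all tested genes, and 15 genes had a WT mean under 10 FPKM and 7 one of at least 1000 FPKM. The replicate SD on the log2 scale, pooled over the 4 groups, had a median of 0.20 in the 77 genes and 0.11 in all tested genes. In 48 of the 77 it was above the upper quartile of all tested genes (0.17). Each of the 77 genes had to fall by at least 1 on the log2(FPKM + 1) scale, which requires a WT mean of at least 1 FPKM. All tested genes included some with a WT mean of 0 FPKM, so the rule itself partly set the higher WT level. Level and replicate SD both come from libraries the rule used, and how much the rule contributed to either was not tested.

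Other genes followed the leading patterns without meeting the threshold. Over the 12 libraries, the gene most like PDE_03857 by Pearson's r of log2(FPKM + 1) was PDE_01192 of the run above (0.992). The next were PDE_02940 and PDE_00485 (both 0.992), which are not among the 77. PDE_02940 differed from WT by -0.82, -0.60 and 0.81 log2 units in gCXC, gXlnRC and gAraRC, and PDE_00485 by -0.66, -0.51 and 0.64. Most like PDE_04128 were PDE_09947 (0.980), PDE_09249 (0.973) and PDE_05357 (0.972), none of them among the 77. PDE_09947, a highly expressed gene, had a mean of 4545 FPKM in WT, 3231 in gCXC, 6640 in gXlnRC and 3428 in gAraRC. These correlations describe 12 libraries in 4 groups, so they mainly reflect the 4 group means.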

How the data were processed

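The authors deposited 1 table of FPKM values with a column for each of 12 libraries. Per the submitters' processing notes the tools were CASAVA 1.8, HISAT2 2.0.0 and featureCounts 1.5.0-p1, and DESeq2 is named too, with no role stated for any. Neither the genome build nor the strand setting of the counting was known (not given in the sources used here), so overlapping genes and near-identical copies could share reads. Per the labels' protocols, mRNA was captured and a strand-specific kit was used.

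Library totals, whole reads and coding lengths (multiples of 3 nt) were recovered from the size of the FPKM steps. Each gene was given the shortest length that made its values whole, and all 9125 tested genes received one. That 100% of values lay within 0.1 of a whole number follows from this search.

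Differences were tested with limma 3.58.1 (R 4.3.3) on log2(FPKM + 1), with 1 mean per group over the 12 libraries, a trended prior variance and 8 residual degrees of freedom. Benjamini-Hochberg adjustment ran over all tested genes within each comparison with WT. Differences on this scale understate the change of low genes. FPKM values were not rescaled. The median difference of gAraRC from WT over all tested genes, -0.34, became -0.01 with median-of-ratios scaling. The scripts were tested on simulated data.

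Named genes are the 2 with the largest smaller move per ordered strain pair, among those with a mean of at least 10 FPKM in either strain and no overlap with WT (10 genes), those most like the leaders, and those delimiting runs. The other genes named were chosen after their values were seen. The 77 genes, the rule and these lists were chosen with earlier results of these data known. Functional gene lists and promoter or protein sequences were not analysed here, because the tags matched no annotation. Python 3.11.15, numpy 2.4.6, pandas 2.3.3 and matplotlib 3.10.9 were used.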

Additional observations from a re-analysis of the deposited data

How the results depend on the processing

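The same 75 genes kept every move of at least 2-fold as called, in the same direction, in all 22 other limma fits (3 scalings, 2 pseudocounts, 2 filters, each library left out, a replicate block, no trend in the prior variance, and voom on recovered reads). The rule chose the genes on these same libraries, so these counts of called genes are a description only. In the main fit, 50.3% of all tested genes were called in gCXC, 54.6% in gXlnRC and 76.1% in gAraRC. Under the 3 other scalings all 77 genes kept the sign of every such move, but 62, 63 and 58 of them still met the threshold with median-of-ratios, TPM and quantile scaling, and 18, 12 and 14 other genes then did. The number of genes that met the rule was 123 with a pseudocount of 0.1, 50 with one of 5, 3 at a threshold of 2 and 152 at a threshold of 0.8, all by construction. A pseudocount of 0.1 gave 10 genes raised in gCXC and lowered in gXlnRC, 21 raised in gCXC and lowered in gAraRC, 22 raised in gXlnRC and lowered in gCXC, 29 raised in gXlnRC and lowered in gAraRC, and 49 raised in gAraRC and lowered in gCXC. A pseudocount of 5 gave 6 genes raised in gXlnRC and lowered in gCXC and 10 raised in gXlnRC and lowered in gAraRC. Genes raised in gCXC and lowered in gAraRC numbered 7 with median-of-ratios scaling, 8 with TPM and 7 with quantile normalization, against 13 without rescaling. Those raised in gAraRC and lowered in gCXC numbered 38, 30 and 30, against 29. Under these scalings the median difference of gAraRC from WT over all tested genes was -0.01, -0.19 and -0.03, against -0.34. The cause of the changed counts was not tested. When single libraries were left out, 70 to 82 genes met the rule. By ordered pair (raised, lowered) it gave 3 to 8 for gCXC and gXlnRC, the 3 without WT replicate 3, 11 to 14 for gCXC and gAraRC, 8 to 12 for gXlnRC and gCXC, 15 to 22 for gXlnRC and gAraRC, 26 to 35 for gAraRC and gCXC, and 20 to 23 for gAraRC and gXlnRC. With the replicate number as a block, 75 of the 77 genes kept every move as called. Same-numbered libraries of different groups correlated in their deviations from the group means at -0.09 to 0.17, over 0.1 in 3 of 18 pairs, so the numbers were not taken to pair the samples.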
